A study of Mus musculus with 12 samples.

Results

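Brain vessels were read here through 34 genes of their endothelial and mural cells, out of 55573 genes in the count table of 12 mouse hippocampi. The genes were taken by name, from a list of known endothelial, blood-brain barrier, pericyte and smooth muscle genes, and all 34 names were found in the table. They comprised 9 endothelial adhesion and surface genes, 4 angiogenic receptors, 3 tight junction genes, 7 barrier transport genes, 7 pericyte genes and 4 smooth muscle genes. Of the 34, 32 passed the filter on low values and were tested, while Anpep and Des did not.

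The samples were whole right hippocampi of C57BL/6J mice aged 4.5 months. APP/PS1 females (n = 4) and APP/PS1 males (n = 4) carried the APPSwe/Ps1dE9 genotype, which per the study's methods places its transgenes under a prion promoter element. WT females (n = 2) and WT males (n = 2) were the controls, and each library came from its own animal. The study asked which transcripts differ between the genotypes in each sex.

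Capillary endothelial cells of the brain form the blood-brain barrier, in which tight junctions seal the path between cells and dedicated carriers move glucose, lipids and hormones across them. Pericytes and smooth muscle cells, together called mural cells, wrap these vessels and set their tone and their barrier properties. Because whole tissue was sequenced, fewer vessel cells and less RNA per vessel cell cannot be told apart.

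Libraries held 36714316 to 50643565 counted reads, and all values below are normalized CPM, read counts expressed relative to the size of the library after upper-quartile scaling. App lay between 1540 and 1659 CPM in APP/PS1 libraries and between 1550 and 1716 CPM in WT libraries, so this mouse row does not check the genotype labels, whereas Thy1 lay between 2173 and 3311 CPM in APP/PS1 against 726 to 747 CPM in WT. Thy1 is not the element named in the methods but a promoter used in other transgenic lines, so these rows do not settle which line the animals belong to. The libraries of APP/PS1 female 1, WT female 2 and APP/PS1 male 2 held 3530 to 6362 CPM of Ttr, the main choroid plexus transcript, against 2.69 to 18.3 CPM in the other 9, and are called Ttr-rich here. This grouping was made from the data and is not one of the study's groups. The summed level of 9 microglial markers was 513 to 798 CPM in APP/PS1 and 344 to 434 CPM in WT libraries.

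The sequences just upstream of 4 barrier transport genes are shown because the results below turn on these genes. Slc2a1 and Mfsd2a had the lowest log2 fold changes between genotypes over both sexes among the members, and Slco1c1 and Pltp the highest in the Ttr-rich libraries. Each window runs from 250 bases before to 50 bases after the RefSeq transcript start in GRCm38.p6, and was written 5′ to 3′ on the strand of the gene. The windows lie at chr4:119108495-119108794 on the plus strand, at chr4:122961139-122961438 on the minus strand, at chr6:141524104-141524403 on the plus strand and at chr2:164857659-164857958 on the minus strand. Capitals mark the core of the hypoxia response element, ACGTG or GCGTG, on either strand, where overlapping matches run together.
Slc2a1: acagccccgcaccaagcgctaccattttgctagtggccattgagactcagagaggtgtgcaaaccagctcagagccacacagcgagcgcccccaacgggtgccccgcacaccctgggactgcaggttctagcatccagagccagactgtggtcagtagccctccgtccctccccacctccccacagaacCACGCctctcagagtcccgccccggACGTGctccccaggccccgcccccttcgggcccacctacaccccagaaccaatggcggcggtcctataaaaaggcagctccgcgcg
Mfsd2a: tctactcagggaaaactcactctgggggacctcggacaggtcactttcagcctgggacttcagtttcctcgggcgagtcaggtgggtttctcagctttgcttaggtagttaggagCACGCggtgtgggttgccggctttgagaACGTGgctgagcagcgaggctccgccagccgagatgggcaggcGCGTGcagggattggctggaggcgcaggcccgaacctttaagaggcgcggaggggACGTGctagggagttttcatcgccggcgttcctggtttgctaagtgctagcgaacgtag
Slco1c1: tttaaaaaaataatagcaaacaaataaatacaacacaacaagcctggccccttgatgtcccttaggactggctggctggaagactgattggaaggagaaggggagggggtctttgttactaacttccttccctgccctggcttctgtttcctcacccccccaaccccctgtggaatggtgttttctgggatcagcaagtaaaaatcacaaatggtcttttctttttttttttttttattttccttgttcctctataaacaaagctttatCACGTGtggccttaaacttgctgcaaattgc
Pltp: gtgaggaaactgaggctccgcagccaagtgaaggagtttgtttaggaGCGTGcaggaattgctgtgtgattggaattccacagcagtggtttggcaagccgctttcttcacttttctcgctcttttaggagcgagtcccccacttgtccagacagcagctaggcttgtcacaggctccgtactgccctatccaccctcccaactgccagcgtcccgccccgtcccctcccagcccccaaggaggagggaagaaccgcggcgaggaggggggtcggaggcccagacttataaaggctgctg
The core was present 2 times in the Slc2a1 window, 4 times in the Mfsd2a window, 2 times in the Slco1c1 window, where both matches share the run CACGTG, and 1 time in the Pltp window. A core was found in 43.8% of all 32851 promoter windows and in 13 of the 26 windows of members. Counted by gene, 12 of the 24 members that have a window held a core. A match is a description of the letters and not evidence of a bound factor.

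All 6 kinds of vessel gene were detected in every library, and levels per kilobase of exon spanned from 218 CPM per kb for Bsg to 0.28 CPM per kb for Des. Bsg, a chaperone of lactate carriers that many brain cells express, stood far above the next gene, Slc2a1, at 26.8 CPM per kb. Itm2a, Rgs5, Vtn, Cldn5 and Pltp followed between 23.6 and 18.8 CPM per kb, and their ranges over libraries overlapped. Pericyte genes lay at both ends of the order, with Rgs5 at 20.9 and Vtn at 20.1 CPM per kb against 0.61 for Cd248 and 0.37 for Anpep. Smooth muscle genes were low, from 2.53 CPM per kb for Acta2 down to Des. The defining markers of endothelium (Pecam1, Cdh5, Cldn5), pericytes (Pdgfrb, Rgs5) and smooth muscle (Acta2, Myh11) were thus all measurable in tissue that was not enriched for vessels. 

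**Figure D1:**
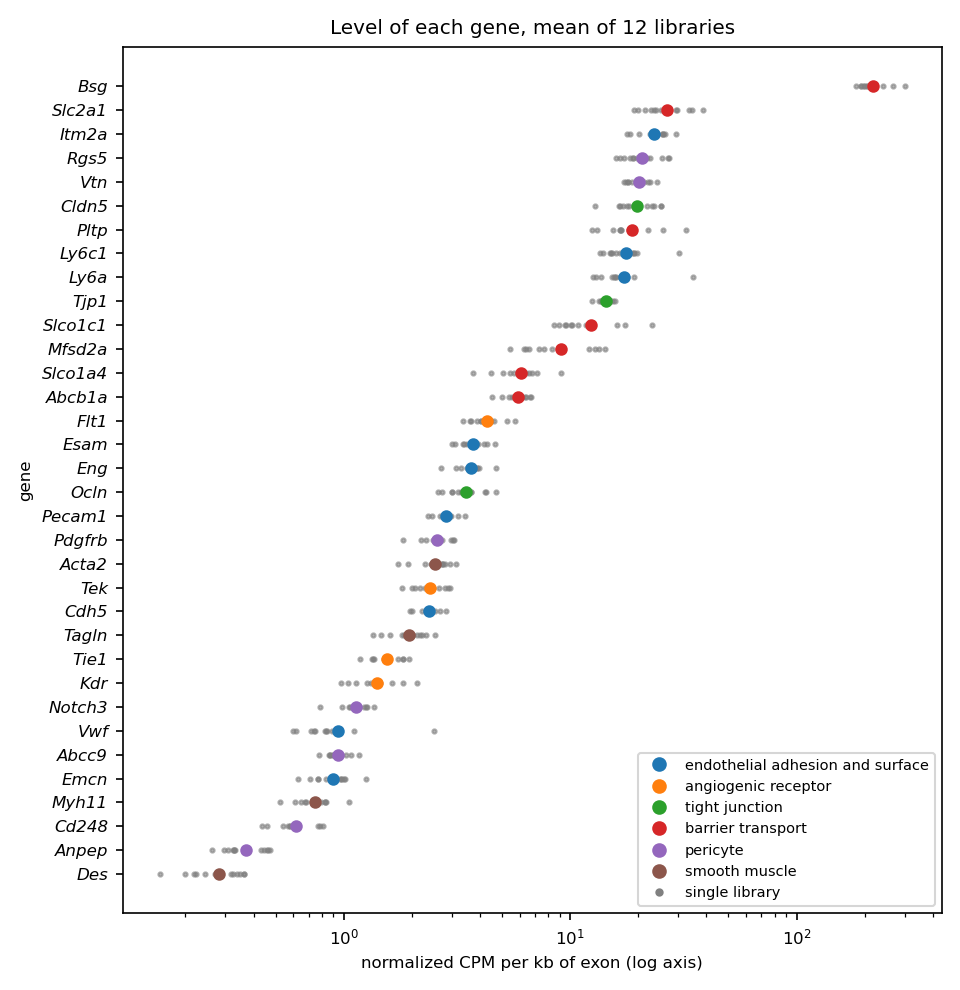
Level of each of the 34 genes in normalized CPM per kb of exon (log axis). Coloured points are means of the 12 libraries by role and grey points are single libraries; Bsg at 218 CPM per kb lies apart from all others, and Des at 0.28 CPM per kb is the lowest.

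No vessel gene of the 32 tested passed the test between APP/PS1 and WT hippocampi. In the comparison of both sexes, 0 of 32 members passed a false discovery rate (FDR) of 0.1 by edgeR's quasi-likelihood test, in which 1.93% of all 14008 genes tested passed. At an unadjusted p under 0.05, 2 members were higher and 3 lower in APP/PS1, where 6.34% of all genes were higher and 3.33% lower. DESeq2 called 1 member, Ly6c1, and 2.86% of all genes, and the likelihood ratio test used by the study called 1, Slc2a1, and 2.85%. The median log2 fold change of the members was 0.01, as it was over all genes. In females 0 of 32 passed (0.75% of all genes) with 1 higher at an unadjusted p under 0.05 (6.17% of all genes), and DESeq2 called 0 members and 2.06% of all genes. In males 0 of 32 passed (0.178% of all genes) with 1 higher and 3 lower at that unadjusted level (3.76% and 1.91% of all genes), and DESeq2 called Ly6c1 and 1.03% of all genes.

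Groups were apart without overlap for few members. Every APP/PS1 female exceeded both WT females for 2 members, Rgs5 and Notch3, where 19.2% of all genes separated in either direction in females. In males Kdr was higher and Slc2a1 and Acta2 lower in every APP/PS1 library, 3 of 32 members where 10.8% of all genes separated. With both sexes joined, 0 of 32 members separated, against 1.45% of all genes.

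**Figure D2:**
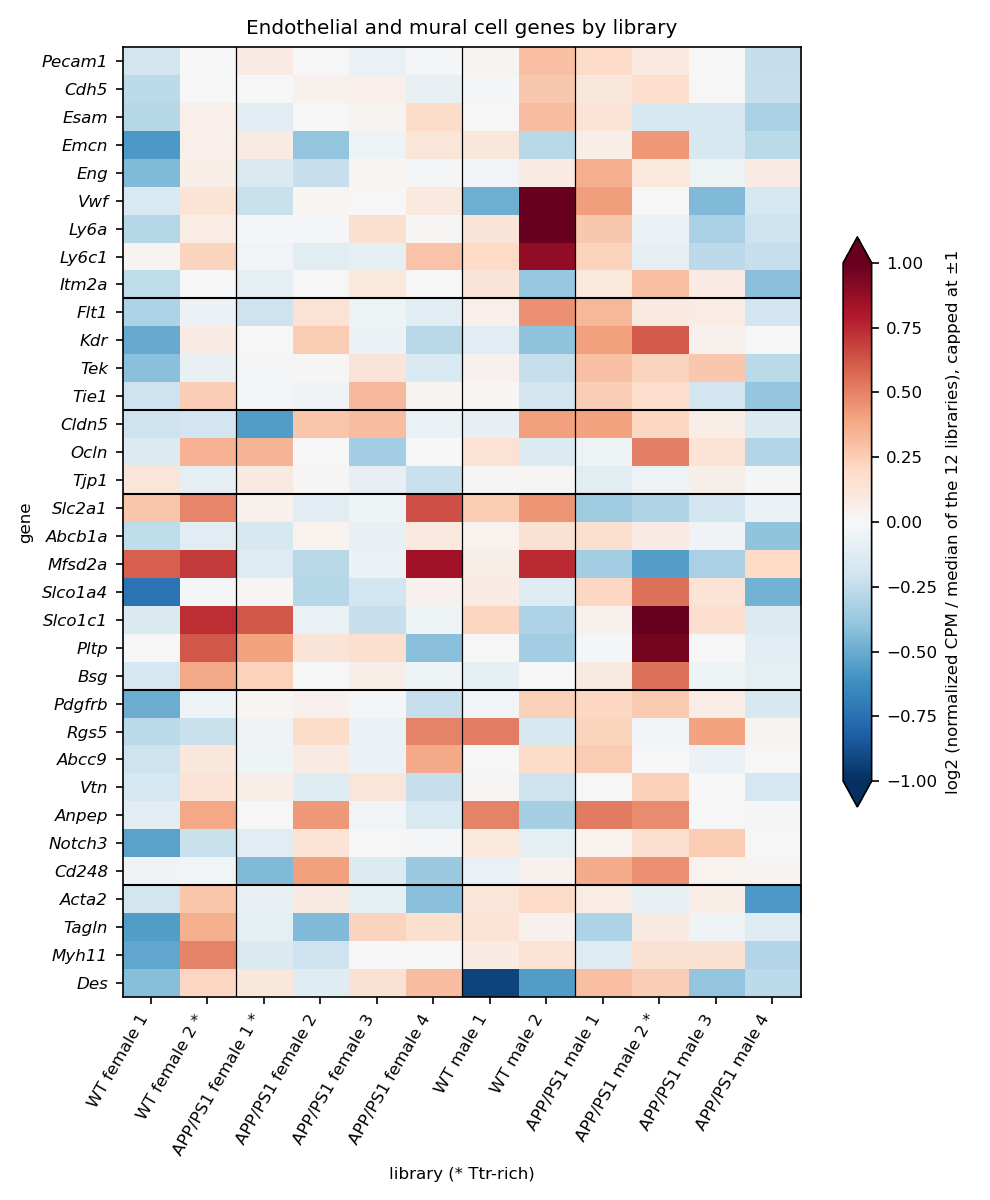
Each gene's normalized CPM in each library as the log2 ratio to its median over the 12 libraries, capped at 1 in either direction, with genes grouped by role and asterisks on Ttr-rich libraries. Vwf, Ly6a and Ly6c1 are high in WT male 2, Slc2a1 and Mfsd2a are high in APP/PS1 female 4, and Slco1c1 and Pltp are high in APP/PS1 male 2.

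Mfsd2a and Slc2a1, both barrier transport genes, had the widest genotype differences among members over both sexes. Vwf and Ly6c1 came close to Slc2a1, with log2 fold changes of -0.42 (SE 0.39) and -0.41 (SE 0.15). Over the 7 barrier transport genes the median was 0.003, with 4 positive and 3 negative. Slc2a1, which encodes the glucose carrier GLUT1 of the barrier, was at 88.6, 80.0, 83.7 and 135 CPM in APP/PS1 females and at 104 and 121 CPM in WT females. In males it was at 67.2, 70.1, 75.3 and 82.5 CPM in APP/PS1 and at 103 and 117 CPM in WT. Every APP/PS1 male was below both WT males, whereas among females APP/PS1 female 4 was the highest library of all. The log2 fold change of Slc2a1 over both sexes was -0.44 (SE 0.14, adjusted p = 0.326 by edgeR), with -0.31 (SE 0.20) in females and -0.57 (SE 0.19) in males. Over both sexes Slc2a1 passed in 5 of 25 alternatives, the study's likelihood ratio test among them (2.85% of all genes).

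Mfsd2a, the carrier of lysophospholipid-bound docosahexaenoic acid that also restrains transcytosis in barrier endothelium, had the same highest library as Slc2a1. It was at 16.4, 14.8, 17.2 and 32.1 CPM in APP/PS1 females and at 27.2 and 29.1 CPM in WT females. Males had 14.1, 12.3, 14.4 and 20.6 CPM in APP/PS1 and 18.7 and 30.1 CPM in WT. APP/PS1 female 4 was again the highest of the 12, and APP/PS1 male 4 lay above WT male 1, so the groups overlapped in both sexes. The log2 fold change over both sexes was -0.62 (SE 0.25, adjusted p = 0.493 by edgeR), similar in females (-0.61, SE 0.37) and males (-0.63, SE 0.35).

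In the fits, leaving out APP/PS1 female 4 changed whether both genes passed more than it changed their log2 fold changes. The second factor of unwanted variation was highest in that library (0.55), so the main fit could already take up part of its level. Since the library stood apart in these same 2 genes, a smaller adjusted p without it is not separate support. Both also passed under a replicate block, where 1.57% of all genes did. Replicate number 4 occurred only in APP/PS1, so the block term takes up the level shared by APP/PS1 female 4 and APP/PS1 male 4. These libraries then add little to the genotype contrast over both sexes, and the block comes close to leaving them out. Without APP/PS1 female 4, Slc2a1 had a log2 fold change of -0.47 (SE 0.05, adjusted p = 0.00177 by edgeR) and Mfsd2a of -0.64 (SE 0.08, adjusted p = 0.00229), and these 2 members passed where 2.08% of all genes did. With the same library left out and a term for Ttr-rich libraries in place of the factors of unwanted variation, a setting added after the data were seen, Slc2a1 was at -0.50 (adjusted p = 0.00377) and Mfsd2a at -0.74 (adjusted p = 0.0479). Leaving out WT male 2 under that same term gave -0.35 and -0.40, both at adjusted p = 0.9998. Without the 3 Ttr-rich libraries and without the factors of unwanted variation, the log2 fold changes were -0.31 and -0.47, and neither passed (adjusted p = 0.836 and 0.890).

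**Figure D3:**
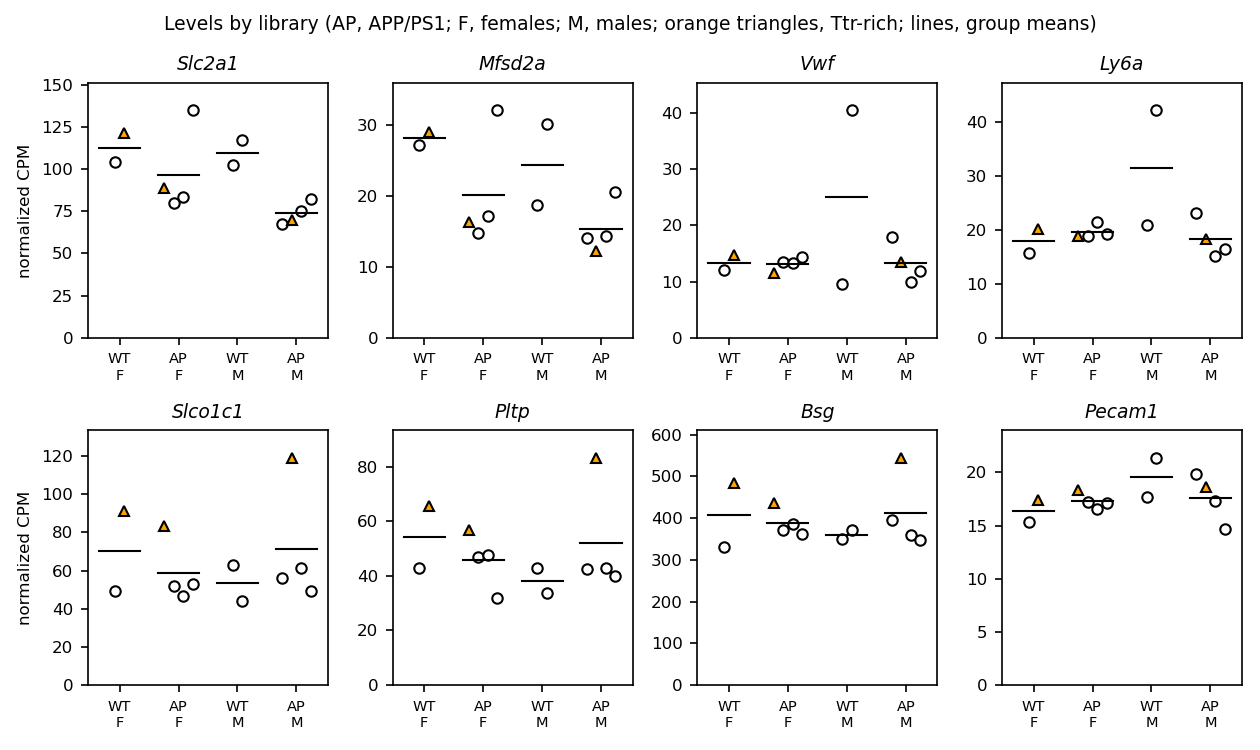
Normalized CPM of 8 genes in each library by group (points; orange triangles, Ttr-rich libraries; lines, group means; axes start at 0). Slc2a1 and Mfsd2a are below WT in the APP/PS1 females other than APP/PS1 female 4, Vwf (40.5 CPM) and Ly6a (42.2 CPM) are high in WT male 2, the triangles are the highest points of Slco1c1, Pltp and Bsg, and Pecam1 overlaps between all groups.

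The other barrier transport genes showed no genotype difference in the test. Bsg was at 436, 372, 387 and 361 CPM in APP/PS1 females, 331 and 484 CPM in WT females, 396, 545, 359 and 348 CPM in APP/PS1 males and 349.7 and 372 CPM in WT males, and its log2 fold change was 0.05 (SE 0.05). The groups overlapped in both sexes. Slco1c1, a thyroid hormone carrier of barrier endothelium and choroid plexus, had a log2 fold change of 0.00 (SE 0.07), and Pltp, a phospholipid transfer protein, of 0.07 (SE 0.11). Slco1a4, an organic anion carrier, was at 0.12 (SE 0.08), and Abcb1a, the main P-glycoprotein of brain endothelium, at -0.03 (SE 0.08).

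Abcb1b, the close paralog of Abcb1a, passed the test where Abcb1a did not, though the difference between the paralogs was not tested. Among 15 other barrier transporters, of which 14 were tested, Abcb1b and Tfrc passed as higher in APP/PS1 over both sexes and 0 as lower. Of all genes tested, 1.76% passed as higher and 0.171% as lower. In females alone and in males alone 0 of the 14 passed, where 0.75% and 0.178% of all genes did. Abcb1b was at 5.85, 4.93, 5.20 and 5.52 CPM in APP/PS1 females against 3.84 and 3.77 CPM in WT females, and at 5.63, 5.44, 5.38 and 5.17 CPM in APP/PS1 males against 3.58 and 4.10 CPM in WT males. Every APP/PS1 library was above every WT library, and the log2 fold change was 0.49 (SE 0.10, adjusted p = 0.0370 by edgeR). How reads shared by the paralogs were counted is not given in the sources used here, so the split between them is uncertain. Abcb1b passed in 20 of 25 alternatives, with log2 fold changes of 0.44 to 0.55. It did not pass without the 3 Ttr-rich libraries and the factors (adjusted p = 0.270), under a replicate block (0.176), or without WT female 1 (0.143), WT female 2 (0.141) or WT male 1 (0.115).

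Tfrc, the transferrin receptor that brings iron across the barrier, was at 139.6, 143, 165 and 184 CPM in APP/PS1 females and 119.6 and 129 CPM in WT females. In males it was at 154, 146, 132 and 125 CPM in APP/PS1 and 134 and 104 CPM in WT, where the groups overlapped. Its log2 fold change was 0.24 (SE 0.06, adjusted p = 0.0786), and it passed in 9 of 25 alternatives, the replicate block not among them (adjusted p = 0.279). Both transporters are expressed outside the endothelium too. Microglial markers were also higher in APP/PS1, 6 of 9 passing (median of the 9, 0.67 on the log2 scale), and their part in the result was not tested.

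Among tight junction genes none passed in any comparison of genotypes. Cldn5, the claudin that seals brain endothelium, was at 18.3, 32.7, 33.3 and 25.7 CPM in APP/PS1 females and 23.3 and 23.6 CPM in WT females. In males it was at 35.5, 31.0, 28.1 and 24.3 CPM in APP/PS1 and 25.4 and 35.8 CPM in WT. APP/PS1 female 1 was the lowest and WT male 2 the highest, with full overlap between genotypes and a log2 fold change of 0.09 (SE 0.19). Ocln, the transmembrane protein occludin, was at -0.05 (SE 0.09).

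Tjp1 encodes the junctional scaffold ZO-1 and is not specific to vessels. It lay between 97.5 CPM in APP/PS1 female 4 and 124 CPM in WT female 1, the narrowest spread of all members (1.27-fold from lowest to highest). Its log2 fold change was -0.04 (SE 0.06).

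Endothelial adhesion and surface genes had a median log2 fold change of -0.04 over both sexes. Pecam1, the adhesion molecule CD31, was at 18.4, 17.3, 16.6 and 17.1 CPM in APP/PS1 females, 15.3 and 17.4 CPM in WT females, 19.8, 18.6, 17.3 and 14.7 CPM in APP/PS1 males and 17.7 and 21.4 CPM in WT males. The highest library was WT male 2 and the lowest APP/PS1 male 4, and the log2 fold change was -0.04 (SE 0.08). Itm2a, a membrane protein enriched in brain endothelium, was at 39.1, 41.7, 44.8 and 41.7 CPM in APP/PS1 females, 35.1 and 41.6 CPM in WT females, 44.9, 51.4, 44.2 and 31.2 CPM in APP/PS1 males and 45.6 and 32.1 CPM in WT males, which overlapped, with a log2 fold change of 0.08 (SE 0.09). Cdh5 (VE-cadherin), Esam, Emcn (endomucin) and Eng (endoglin) had log2 fold changes from -0.10 to 0.08.

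Vwf, Ly6a and Ly6c1 were set by 1 library, WT male 2. Ly6a, a surface antigen of mouse endothelium, was at 18.9, 19.0, 21.4 and 19.3 CPM in APP/PS1 females, 15.7 and 20.1 CPM in WT females, 23.1, 18.4, 15.2 and 16.5 CPM in APP/PS1 males, and 20.9 and 42.2 CPM in WT males. Its relative Ly6c1 was at 26.8, 25.3, 25.6 and 33.2 CPM in APP/PS1 females, 27.9 and 31.99 CPM in WT females, 32.1, 25.5, 22.8 and 23.3 CPM in APP/PS1 males, and 31.5 and 50.6 CPM in WT males. WT male 2 exceeded the next library 1.83-fold for Ly6a and 1.52-fold for Ly6c1, while WT male 1 lay within the range of the APP/PS1 libraries. Vwf, the clotting factor stored in endothelium, was at 40.5 CPM in WT male 2, or 2053 reads, against 9.56 to 17.9 CPM in the other 11 libraries; it was singled out after its values were seen.

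In males the log2 fold changes were -0.79 (SE 0.27) for Ly6a, -0.68 (SE 0.21) for Ly6c1 and -0.88 (SE 0.53) for Vwf, none passing the test (adjusted p = 0.709, 0.583 and 0.998 by edgeR). With WT male 1 left out, which leaves WT male 2 as the lone WT male and assumes that it varies like the other groups, all 3 passed in males, where 0.544% of all genes did. With WT male 2 left out instead, WT male 1 was the lone WT male. The log2 fold changes of Ly6a and Ly6c1 in males were then -0.21 (SE 0.19) and -0.28 (SE 0.15).

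Lcn2, Sele and Selp, which were picked out after their values were seen, were high in WT male 2 too. Lcn2, an acute-phase lipocalin, was at 19.3 CPM there against 4.46 CPM in APP/PS1 male 1, the next library, and a median of 0.23 CPM over the other 11. Sele and Selp, the endothelial selectins that capture leukocytes, were read 84 and 46 times in WT male 2 and at most 5 times in any other library. Of the 17 genes of endothelial activation and leakage, 10 lay above and 7 below the median of the other 11 libraries, Vcam1, Icam2, Mcam, Cav1 and Cavin2 among the 7, and 4 were highest in WT male 2. Of the 32 tested members 8 were highest there, against 8.12% of all genes tested, and 11 were highest in APP/PS1 male 2, against 13.5%.

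Angiogenic receptors had positive log2 fold changes in 3 of 4 cases. Kdr, the main signalling receptor for VEGF, was at 12.4, 14.8, 11.9 and 10.2 CPM in APP/PS1 females and 8.76 and 13.1 CPM in WT females. In males it was at 16.5, 19.0, 12.7 and 12.3 CPM in APP/PS1 and 11.4 and 9.40 CPM in WT. The male groups did not overlap, the female groups did, and the log2 fold change was 0.36 (SE 0.12, adjusted p = 0.314 by edgeR). It did not pass in any of 25 alternatives, over which it lay between 0.26 and 0.50.

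Tek, the angiopoietin receptor TIE2, was at 11.2, 11.4, 12.4 and 10.2 CPM in APP/PS1 females, 8.49 and 10.8 CPM in WT females, 14.0, 13.2, 13.7 and 9.39 CPM in APP/PS1 males and 11.7 and 9.69 CPM in WT males. APP/PS1 male 4 alone fell under both WT males, and the log2 fold change was 0.21 (SE 0.11). Flt1, the VEGF receptor that acts largely as a decoy, was at 48.9, 62.4, 54.4 and 52.6 CPM in APP/PS1 females and 45.5 and 54.3 CPM in WT females, and at 71.2, 60.4, 59.5 and 49.5 CPM in APP/PS1 males and 58.6 and 77.5 CPM in WT males. WT male 2 was again the highest library, and the log2 fold change was -0.02 (SE 0.12). Tie1, the orphan partner of Tek, was at 0.02 (SE 0.12). Of 19 angiogenic ligands and co-receptors, 18 were tested and 0 passed in either direction.

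Pericyte genes were the role in which all tested members had a positive log2 fold change over both sexes, 6 of 6, at a median of 0.11 and a highest value of 0.23, and 0 passed. Over all genes tested, 7674 of 14008 were positive over both sexes. Of the 10 tested smooth muscle and pericyte genes outside the members, 2 were positive and 8 negative, at a median of -0.03. In males 3 of the 6 pericyte members were positive. Notch3, the Notch receptor of mural cells, was at 8.51, 10.1, 9.21 and 9.09 CPM in APP/PS1 females and 6.35 and 7.92 CPM in WT females. In males it was at 9.44, 10.3, 10.99 and 9.24 CPM in APP/PS1 and 9.90 and 8.65 CPM in WT, so only the female groups were apart. The log2 fold change was 0.36 (SE 0.14, adjusted p = 0.400 by edgeR) in females and 0.10 (SE 0.13) in males, and the difference between the sexes did not pass (adjusted p = 0.997).

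Rgs5, a regulator of G protein signalling that marks pericytes, was at 85.8, 99.9, 83.6 and 124 CPM in APP/PS1 females and 72.7 and 75.3 CPM in WT females. Males had 102, 86.1, 116 and 89.3 CPM in APP/PS1 and 125 and 78.7 CPM in WT, where WT male 1 was the highest of all libraries. The log2 fold change was 0.13 (SE 0.11). Pdgfrb, the PDGF receptor that recruits pericytes, was at 14.3, 14.5, 14.0 and 12.04 CPM in APP/PS1 females, 10.001 and 13.6 CPM in WT females, 16.3, 16.9, 14.9 and 12.6 CPM in APP/PS1 males and 13.9 and 16.7 CPM in WT males, with overlap in both sexes and a log2 fold change of 0.11 (SE 0.09). Vtn (vitronectin), Abcc9 (a subunit of a potassium channel) and Cd248 (endosialin) were at 0.03, 0.02 and 0.11. Anpep, an aminopeptidase of pericytes, lay between 1.08 and 1.96 CPM and was not tested.

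WT female 1 held the lowest level of 14 of the 32 tested members, among them Cdh5, Kdr, Pdgfrb and Notch3, where 11.3% of all genes tested were lowest. It was 1 of only 2 WT females. WT female 1 was Ttr-poor, and its partner WT female 2 was Ttr-rich. The mean log2 ratio of all 34 members to their medians was -0.24 in WT female 1 and 0.15 in WT female 2, whereas the 4 APP/PS1 females lay between -0.02 and 0.02.

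Smooth muscle genes had negative log2 fold changes over both sexes, none of which passed, at -0.21 (SE 0.14) for Acta2, -0.11 (SE 0.16) for Tagln and -0.17 (SE 0.15) for Myh11. Acta2, smooth muscle actin, was at 5.40, 6.04, 5.32 and 4.24 CPM in APP/PS1 females, 5.0004 and 6.89 CPM in WT females, 5.99, 5.39, 5.95 and 3.82 CPM in APP/PS1 males and 6.16 and 6.48 CPM in WT males. Myh11, smooth muscle myosin, was at 5.14, 4.93, 5.71 and 5.66 CPM in APP/PS1 females, 3.97 and 8.03 CPM in WT females, 5.20, 6.31, 6.33 and 4.63 CPM in APP/PS1 males and 6.03 and 6.29 CPM in WT males. WT female 2 was the highest library for Acta2, Myh11 and Tagln, the actin-binding transgelin. For Myh11 the WT females spanned the range of the APP/PS1 females, and for Acta2 APP/PS1 female 4 lay below both WT females. Tagln overlaps Pcsk7 and Gm48529 over 1349 of its 1988 exonic bases on the other strand, so reads of these genes may be mixed in it if strand was not used. Des, the intermediate filament desmin, lay between 0.58 and 1.37 CPM and was not tested.

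Between the sexes no member passed either. Of the 32 log2 fold changes of females against males 27 were negative, at a median of -0.11. Over all genes tested, 7071 of 14008 were negative, at a median of -0.001. The members were read in the same libraries, so this count is not a test. In the comparison of females with males over both genotypes 0 of 32 members passed (0.0999% of all genes), DESeq2 called 0 (0.357% of all genes), and at an unadjusted p under 0.05 there were 4, all lower in females, as were 2.54% of all genes. These were Pdgfrb at a log2 fold change of -0.31 (SE 0.10), Slco1a4 at -0.27 (SE 0.08), Flt1 at -0.30 (SE 0.13) and Notch3 at -0.24 (SE 0.10). Slco1a4 alone passed without APP/PS1 male 4, where 0.258% of all genes did. For the difference of the genotype effect between the sexes 0 members passed, where 0.0% of all genes did, DESeq2 called 0 (0.0642% of all genes), and Ly6a was the 1 member higher at an unadjusted p under 0.05 (2.06% of all genes), at 0.97 (SE 0.40), with WT male 2 in its contrast.

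Ttr-rich libraries differed from the other 9 in 4 of 32 members, all higher, where 4.98% of all genes passed as higher and 5.23% in either direction. These were Slco1c1, Pltp, Bsg and Ocln, 3 of them barrier transport genes, and for each the 3 Ttr-rich libraries lay above all 9 others. Separation of this kind was seen for 6.69% of all genes. The test was a term for Ttr-rich libraries beside the 4 groups, and the 3 libraries were spread over 3 of these groups.

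Slco1c1 was at 83.5 CPM in APP/PS1 female 1, 91.1 CPM in WT female 2 and 119 CPM in APP/PS1 male 2, against 44.0 to 63.2 CPM in the others (median 52.1). APP/PS1 male 2, which also held the most Ttr, was the highest, and the log2 fold change was 0.91 (SE 0.11, adjusted p = 0.000142 by edgeR). Pltp was at 56.8, 65.8 and 83.4 CPM in these libraries in the same order and at 31.99 to 47.8 CPM in the others, with a median of 42.8 CPM (log2 fold change 0.70, SE 0.13, adjusted p = 0.00931). Its exons overlap those of Ctsa over 495 bases on the other strand.

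Bsg was at 436, 484 and 545 CPM in the Ttr-rich libraries and at 331 to 396 CPM in the others, with a median of 361 CPM (log2 fold change 0.44, SE 0.07, adjusted p = 0.00121). Ocln was at 17.8, 17.9 and 19.9 CPM against 11.01 to 15.5 CPM, with a median of 13.5 CPM (log2 fold change 0.50, SE 0.11, adjusted p = 0.0160). Slco1c1 and Bsg passed in all 20 alternatives, whereas Ocln and Pltp were lost without APP/PS1 male 2 (adjusted p = 0.221 and 0.207) or under a replicate block (0.317 and 0.126). Over the alternatives their log2 fold changes were 0.43 to 0.54 for Ocln and 0.50 to 0.85 for Pltp. Among the endothelial markers Cldn5, Pecam1 and Cdh5 none passed, with log2 fold changes of -0.22 (SE 0.19), 0.13 (SE 0.09) and 0.14 (SE 0.11). Emcn at 0.43 (SE 0.15), Slco1a4 at 0.45 (SE 0.15) and Kdr at 0.33 (SE 0.14) did not pass either (adjusted p = 0.180, 0.156 and 0.304 by edgeR), with wider errors than Bsg.

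Slc2a1 and Mfsd2a, the genes with the widest genotype differences over both sexes, were at -0.04 (SE 0.16) and -0.27 (SE 0.27) in this comparison. All 15 choroid plexus markers passed as higher in Ttr-rich libraries, and 1 of them is Ttr itself, which set the grouping. With Ttr the summed level was 4094 to 7259 CPM against 30.9 to 51.3 CPM, the other 14 summed to 564 to 897 CPM against 27.5 to 36.9 CPM, and none was at 0 in any library. Of the ependymal markers 4 of 5 passed, of the fibroblast markers 5 of 11 and of the oligodendrocyte markers 2 of 5, all higher. The choroid plexus epithelium is itself a barrier that expresses transporters and occludin, and its part in the 4 members was not tested.

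Lists of other vessel genes were counted in the same comparison, where 4.98% of all genes passed as higher. Of the 12 basement membrane genes 4 passed, all higher, and so did 2 of 18 angiogenic ligands and co-receptors, 2 of 10 tested genes of endothelial activation and leakage, and 1 each of the barrier Wnt, Notch and other transporter lists. None of these lists held a gene that passed as lower. Smooth muscle and pericyte genes outside the members gave 0 of 10.

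**Figure D4:**
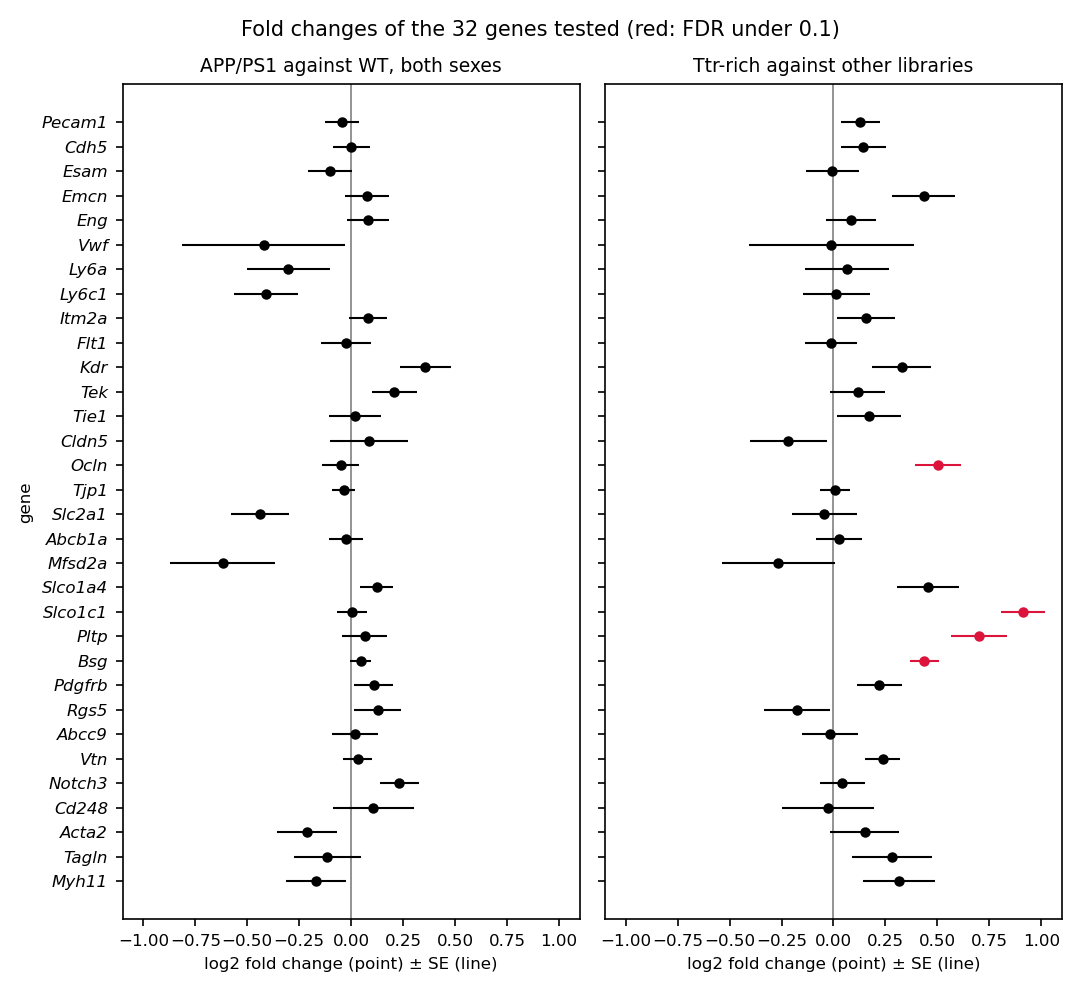
Log2 fold change (points) with SE (lines) of the 32 tested genes, for APP/PS1 against WT in both sexes (left) and for Ttr-rich against other libraries (right), with genes that passed an FDR of 0.1 in red. No gene passed on the left, where Mfsd2a at -0.62 is the lowest, and Ocln, Slco1c1, Pltp and Bsg passed on the right.

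Of the remaining lists, 0 genes passed between genotypes over both sexes among 23 barrier Wnt and endothelial transcription genes, 10 endothelial Notch genes, 12 basement membrane genes, 10 tested genes of endothelial activation and leakage, and 10 tested smooth muscle and pericyte genes outside the members. Markers of choroid plexus, fibroblasts, red cells and ependyma also gave 0 between genotypes, as did perivascular macrophages, neurons and oligodendrocytes, and astrocyte markers gave 1, Gfap, higher in APP/PS1.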

How the data were processed

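Poly-A RNA of 12 hippocampi was sequenced in directional libraries. The authors used Trimmomatic for trimming and STAR for alignment to GRCm38, and deposited counts per Ensembl gene from HTSeq, whose strand option is not given in the sources used here; the counts were used as deposited. Genes reaching a log2 CPM of 1 in 3 or more libraries (14008 of 55573) were scaled by upper quartile and fitted in one model of 4 groups with 2 factors of unwanted variation, estimated as in RUVg from all but the 5000 leading genes of a first pass. The test was the robust quasi-likelihood test of edgeR 4.0.16 (R 4.3.3) with Benjamini-Hochberg adjustment over all genes tested, and a call is an FDR under 0.1. Ttr-rich libraries (at least 1000 CPM of Ttr) were compared by a term beside the groups, without those factors. The study used a likelihood ratio test, tried here as an alternative beside DESeq2 1.42.0 and others. The study's methods state a filter on log2 CPM too but 15521 genes kept, the number that a filter at a CPM of 1 left here. SE was the fold change divided by the root of F. The code was tested on simulated data. Gene models were GENCODE M21.

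Members and lists were chosen with earlier results of these data known. Values per library are given for members called in any comparison, for the highest member per kb and the 2 with the smallest p in each role, and for Cldn5, Pecam1, Flt1, Slc2a1, Mfsd2a, Pdgfrb, Rgs5 and Acta2; list genes are named where called between genotypes, at most 3 a list. Read counts within groups differed beyond sampling noise in all 14 pairs of libraries, so none was a duplicate. Depth, at 36714316 to 50643565 counts, covers counting error only.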

Additional observations from a re-analysis of the deposited data

Results flagged for a closer look

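In groups of 4 libraries a value was marked when its gap to the nearest other library took up more of the group's range than Dixon's critical value allows, and chance marks about 1 in 20 groups. Of 68 groups, 9 were marked, in 8 genes. Slc2a1 (135 CPM) and Mfsd2a (32.1 CPM) stood high in APP/PS1 female 4, where the other 3 APP/PS1 females lay between 80.0 and 88.6 CPM and between 14.8 and 17.2 CPM. Slco1c1 stood high in APP/PS1 female 1 (83.5 CPM) and in APP/PS1 male 2 (119 CPM), and Pltp in APP/PS1 male 2 (83.4 CPM), both of them Ttr-rich libraries. Ly6a (21.4 CPM) and Tie1 (9.51 CPM) stood high in APP/PS1 female 3 by small amounts. Abcc9 stood high in APP/PS1 male 1 (9.02 CPM), and Tek stood low in APP/PS1 male 4 (9.39 CPM) against 13.2 to 14.0 CPM in the other 3. Groups of 2 could not be examined in this way, so WT male 2 is not among them.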

How the results depend on the processing

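The counts of members called changed with single settings, and the cause was not tested. For APP/PS1 against WT in both sexes, where 0 were called, the likelihood ratio test gave 1 (Slc2a1, where 2.85% of all genes were called), DESeq2 1 (Ly6c1, 2.86%), and leaving out APP/PS1 female 4 under the Ttr-rich term 2 (1.95%); leaving out single libraries gave 0 to 3. In females leaving out single libraries gave 0 to 2, with Slc2a1 and Mfsd2a called without APP/PS1 female 4 (0.888% of all genes). In males DESeq2 gave 1 (1.03%), leaving out APP/PS1 female 4 under the Ttr-rich term 1, and leaving out single libraries 0 to 3, the 3 being Vwf, Ly6a and Ly6c1 without WT male 1. Over both sexes 2 members were called without APP/PS1 female 4 (2.08% of all genes), and Slc2a1 without APP/PS1 male 4 (2.56%). The 1 member called in males under the Ttr-rich term was Slc2a1, where 0.1% of all genes were called. For females against males leaving out single libraries gave 0 to 1, and for the difference between the sexes 0. For Ttr-rich libraries, where 4 were called, no expression filter gave 8 (5.49% of all genes), of which Cldn5, Mfsd2a and Rgs5 were lower, and leaving out single libraries gave 2 to 5, with 2 (Slco1c1 and Bsg) without APP/PS1 male 2. Replicate numbers recur between groups, and whether they pair the samples was not settled. Deviations of same-numbered libraries from their group means correlated above 0.1 in 4 of 14 pairs (-0.67 to 0.73). In groups of 2 each deviation is the mirror of the other, so these correlations cannot decide it. Under a replicate block 2 members were called in both sexes (Slc2a1 and Mfsd2a, where 1.57% of all genes were). Replicate numbers 3 and 4 occur only in APP/PS1, so the libraries with these numbers add little to that genotype contrast under the block. In males 1 was called under that block (Slc2a1, 0.128% of all genes), and in Ttr-rich libraries 2 (Slco1c1 and Bsg, 2.28%). Values of single named genes and medians of the members under alternatives were set against the main fit. Of these, 2970 stayed the same, 23 came to pass the threshold, 25 ceased to pass it, 248 moved, and 0 called values changed sign. For a gene, the same means that direction and side of the threshold were kept, and moved means a sign change without a call in either fit. For a median, they mean a shift under 1 SD or not, the SD being that of the members' mean log2 level within groups.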
